A study of Mus musculus with 8 samples.

Results

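The comparison described here was between EL4 cells that carried introduced T-bet and the matched line that carried only fluorescent proteins. T-bet, encoded by Tbx21, is the T-box transcription factor that directs naive CD4+ T cells towards the TH1 fate, and it binds DNA through a T-box domain that recognises the half-site GGTGTGA. In T cells and NK cells it is known for switching on interferon-γ, chemokines and their receptors and parts of the cytotoxic programme. EL4 is a mouse T lymphoblast line from a C57BL/6 lymphoma.

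RNA was measured in 4 EL4 lines to ask what T-bet and GATA3 do alone and together. All cells were treated before harvest with the phorbol ester PMA at 50 ng/ml and the calcium ionophore ionomycin at 1 μM for 4 h, a stimulus that bypasses the T cell receptor, and no unstimulated library was analysed here. Of the 8 libraries, the 4 described here were chosen by their labels alone. They were the 2 libraries of T-bet + Plum, a line carrying FLAG-T-bet and the red fluorescent protein Plum, and the 2 of GFP + Plum, a line carrying green fluorescent protein and Plum. The other 4 libraries came from GFP + GATA3 and T-bet + GATA3, in which HA-GATA3 took the place of Plum. By the study's account EL4 cells also express endogenous Gata3. With and without GATA3 therefore refer below to the introduced HA-GATA3 only. The libraries with HA-GATA3 entered the fit as groups of their own. Their values are given where the same genes were compared in libraries that the main comparison did not use. Each line is a single transduced and drug-selected EL4 line, and its replicates, by the study's definition, were harvested on separate days. An effect of T-bet and a difference between the lines that arose in their making therefore cannot be told apart, and p-values measure the spread between harvests. Reads from the introduced and the endogenous Tbx21 were not separated.

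The GFP + Plum libraries held 15385166 and 16003519 estimated counts and the T-bet + Plum libraries 8038565 and 14878505, so T-bet + Plum replicate 1 was the shallowest of the 4. Levels are given as CPM, the counts scaled to a common library total, on TMM-scaled library sizes, in the order replicate 1 and replicate 2, and where a pair is set against another the GFP + Plum pair comes first. Tbx21, on GRCm38 at chromosome 11 (97098071 to 97115331), was at 3.59 and 1.78 CPM in GFP + Plum and at 129 and 159 CPM in T-bet + Plum. Both T-bet + Plum libraries stood far above both controls and the log2 fold change (FC) was 5.74 ± 0.29 (SE, n = 2 libraries a line; FDR 6.34e-05). The T cell origin of both lines was visible in the data: all 15 listed T cell genes had counts, and their summed level was 3104 and 3015 CPM in GFP + Plum and 3971 and 4454 CPM in T-bet + Plum.

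After the filter on low counts 14791 genes were tested, of which 11062 were protein-coding. A gene was called when its FDR was at most 0.05 and its log2 FC was above 1.5 in size. By this threshold 446 genes, 3.02% of those tested, were called. Of these, 314 genes (2.12%) rose with T-bet and 132 genes (0.892%) fell. At the FDR alone 917 genes passed, and 2865 had an unadjusted p below 0.05. The median log2 FC of all genes tested was 0.01, so the comparison was centred. Of the TH1 genes that the study names as examples 6 of 9 tested rose, and of its TH2 examples 3 of 10 fell, but these were chosen with these samples in view and are not independent evidence of direction. For no called gene did the libraries of the 2 lines overlap. The thresholds of FDR and size make this likely beforehand, so it adds no support to the calls. The counts depended on the libraries: 277 genes were called without T-bet + Plum replicate 1 and 201 without T-bet + Plum replicate 2, against 442 and 335 without the GFP + Plum libraries. The changes were often large, with 152 rises above 3 on the log2 scale and 61 falls below -3. Among the rises, 24 genes had no count at all in either GFP + Plum library and 38 had between 1 and 3 counts there. For those, a fold is given as a lower bound against a floor of 3 counts, or as a ratio with its 95% exact interval, both of which cover counting error only.

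**Figure D1:**
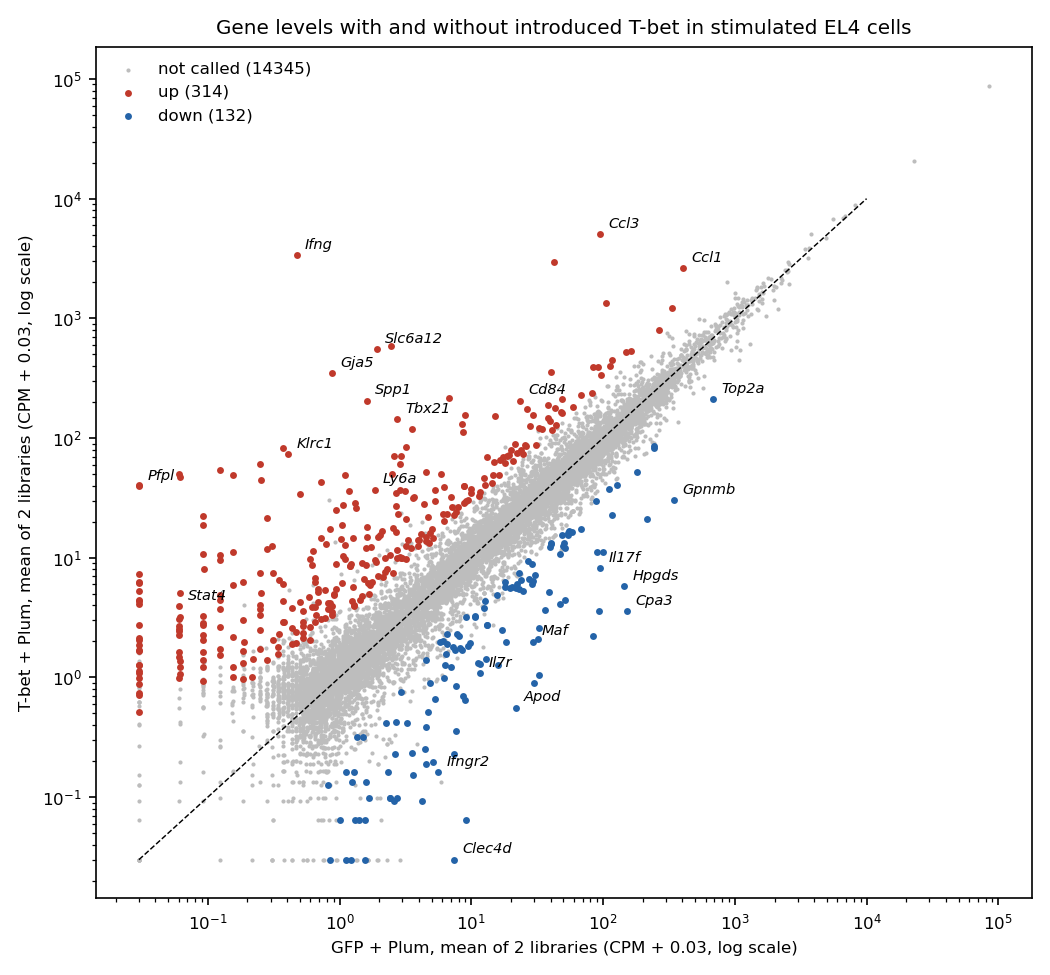
Mean level of each of the 14791 genes tested in GFP + Plum (x axis) and T-bet + Plum (y axis), in CPM plus 0.03 on log axes, each point a gene and the dashed line equal levels. The 314 genes called up (red) reach much lower control levels and larger distances from the line than the 132 called down (blue), and Ifng, Ccl3 and Ccl1 lie among the most abundant RNAs of the T-bet line. A gene called down needs a control level to fall from, so the difference in control levels follows in part from the selection.

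The 12 largest rises among protein-coding genes that changed the same way in both replicate numbers and reached at least 5 CPM came from a mixture of effector and unrelated genes. Ifng (chromosome 10, 118441046 to 118445892), which encodes interferon-γ, went from 0.186 and 0.698 CPM in GFP + Plum to 3969.9 and 2788 CPM in T-bet + Plum, a log2 FC of 12.88 ± 0.41 (FDR 5.26e-06). It was near the detection limit in both control libraries and among the most abundant RNAs in both T-bet libraries. Samd3 (chromosome 10, 26229707 to 26272172), a gene for a sterile alpha motif protein that is expressed in NK cells, had 1 count in GFP + Plum and was at 50.2 and 49.6 CPM with T-bet, 1591-fold higher (95% exact interval 285 to 62881). Nkg7 (chromosome 7, 43437073 to 43438249), which encodes a membrane protein of cytotoxic granules, likewise had 1 control count and reached 38.8 and 55.7 CPM, 1588-fold higher (95% exact interval 284 to 62769). Gzmk (chromosome 13, 113171608 to 113225908), the gene for the protease granzyme K, had 3 control counts and reached 43.8 and 65.2 CPM, 613-fold higher (95% exact interval 209 to 2978). All 3 were off, or nearly so, in both control harvests. Pfpl (chromosome 19, 12427905 to 12432110), a gene for a perforin-like pore-forming protein, had no control count and was at 39.7 and 39.7 CPM, at least 422-fold higher. Gzme (chromosome 14, 56117626 to 56120625), another granzyme gene, also had no control count and was at 2.86 and 11.7 CPM, at least 91.1-fold higher. The 2 T-bet libraries were alike for Pfpl and uneven for Gzme, whose FDR of 0.0277 became 0.108 without T-bet + Plum replicate 2, 0.0647 without GFP + Plum replicate 1 and 0.0818 without GFP + Plum replicate 2. Gzme lies in a cluster of near-identical granzyme genes and Pfpl has a close relative, so reads may have been split between copies.

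The other large rises were in genes outside the usual T cell effector programme. Slc6a12 (chromosome 6, 121343076 to 121365775), which encodes a betaine and GABA transporter, was at 1.98 and 1.78 CPM in the controls and at 511 and 590.2 CPM with T-bet (log2 FC 8.19 ± 0.26, FDR 5.26e-06). Gja5 (chromosome 3, 96904693 to 97077416), the gene for the gap junction protein connexin 40, was at 0.681 and 1.01 against 259 and 436 CPM respectively (log2 FC 8.67 ± 0.45, FDR 6.82e-05). Both were close to absent without T-bet and abundant with it. Slit3 (chromosome 11, 35121224 to 35708507), a secreted guidance cue, went from 0.124 and 0.127 to 48.8 and 49.9 CPM (log2 FC 8.52 ± 0.31, FDR 1.1e-05). Myo3b (chromosome 2, 70039126 to 70429198), a class III myosin, went from 0.309 and 0.127 to 65.8 and 54.4 CPM (log2 FC 8.04 ± 0.45, FDR 7.86e-05). Cacna1d (chromosome 14, 30039939 to 30491455), the pore-forming subunit of an L-type calcium channel, had 2 control counts and was at 22.8 and 21.5 CPM, 351-fold higher (95% exact interval 96.6 to 2905). The T-bet libraries were close to each other for these 3 genes, and the control levels rested on few counts. The last of the 12 was Tgtp2 (chromosome 11, 49057194 to 49064206), an interferon-inducible GTPase described with its family below.

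Promoter windows of these 12 genes were searched for the T-box half-site GGTGTGA on both strands, because a factor that binds this sequence was introduced. Each window, from RefSeq on GRCm38.p6, ran from 250 bases before to 50 after the annotated start. The half-site was present in the windows of 3 of the 12 genes, Samd3, Nkg7 and Gzmk, and those are shown with the match in capitals, written along the strand of the gene. The first base of the match lay at -15 for Samd3, where it is read on the opposite strand, at -13 for Nkg7 and at -75 for Gzmk.
Samd3, chr10:26229457-26229756, + strand: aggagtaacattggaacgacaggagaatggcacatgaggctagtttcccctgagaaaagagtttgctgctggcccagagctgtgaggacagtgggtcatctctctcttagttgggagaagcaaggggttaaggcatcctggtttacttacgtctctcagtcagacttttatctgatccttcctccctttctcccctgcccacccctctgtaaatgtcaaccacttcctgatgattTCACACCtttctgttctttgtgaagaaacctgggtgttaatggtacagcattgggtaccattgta
Nkg7, chr7:43436888-43437187, + strand: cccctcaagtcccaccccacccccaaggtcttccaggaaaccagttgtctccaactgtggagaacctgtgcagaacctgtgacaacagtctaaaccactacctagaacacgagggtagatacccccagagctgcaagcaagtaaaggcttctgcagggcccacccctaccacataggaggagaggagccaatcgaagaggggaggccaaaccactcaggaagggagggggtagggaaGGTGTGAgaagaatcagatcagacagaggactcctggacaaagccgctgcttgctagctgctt
Gzmk, chr13:113180916-113181215, - strand: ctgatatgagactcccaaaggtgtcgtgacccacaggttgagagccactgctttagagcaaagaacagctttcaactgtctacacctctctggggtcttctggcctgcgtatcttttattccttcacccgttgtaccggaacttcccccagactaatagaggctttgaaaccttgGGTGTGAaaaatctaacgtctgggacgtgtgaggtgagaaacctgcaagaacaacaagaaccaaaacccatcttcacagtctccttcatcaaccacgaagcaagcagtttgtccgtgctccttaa
Of all genes with a window, 4.60% held the half-site in at least 1 window. Among the genes tested the share was 4.12%, from 8399 genes matched by symbol. It was 6.22% of the 209 genes called up that had a window (13 genes) and 2.17% of the 92 called down that had one (2 genes). The longer form AGGTGTGA was found in 1.91% of those called up, 1.09% of those called down, 1.04% of genes tested and 1.48% of all genes with a window. The single window of Ifng held no match. These shares are descriptions of short windows and say nothing of binding.

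The 12 largest falls were of another kind, and several were genes that myeloid cells, mast cells or osteoclasts are known for. Cpa3 (chromosome 3, 20215620 to 20242181), the carboxypeptidase of mast cell granules, was at 89.9 and 212 CPM in GFP + Plum and 3.36 and 3.76 CPM in T-bet + Plum (log2 FC -5.39 ± 0.43, FDR 0.000449). Clec4d (chromosome 6, 123262111 to 123275265), a C-type lectin receptor of macrophages and neutrophils, was at 5.57 and 9.13 CPM in the controls and had no count with T-bet, at least 55.4-fold lower. Atp6v0d2 (chromosome 4, 19876841 to 19922605), a proton pump subunit of osteoclasts and macrophages, went from 10.6 and 7.42 CPM to 1 count, 205-fold lower (95% exact interval 36.5 to 8129.9). Expression of all 3 was clear in both control harvests and low or absent with T-bet. In bulk RNA, fewer cells that express a gene and less of its RNA per cell cannot be told apart. Ifngr2 (chromosome 16, 91547072 to 91565623), which encodes the second chain of the interferon-γ receptor, fell from 6.75 and 4.38 CPM to 0.124 and 0.137 CPM, which were 3 counts in all, 42.1-fold lower (95% exact interval 14.2 to 206). Its FDR of 0.00501 became 0.0781 without T-bet + Plum replicate 2. Megf10, a phagocytic receptor, was at 129 and 57.7 CPM without and 2.49 and 4.65 CPM with T-bet (log2 FC -4.64 ± 0.45, FDR 0.00118). Wif1, an inhibitor of Wnt ligands, went from 23.3 and 41.5 to 1.37 and 0.684 CPM (log2 FC -5.08 ± 0.42), and Apod, a lipid-binding apolipoprotein, from 22.5 and 20.9 to 0.373 and 0.684 CPM (log2 FC -5.24 ± 0.35). Rgs13, a regulator of G protein signalling, went from 39.4 and 20.7 to 0.498 and 1.23 CPM (log2 FC -4.97 ± 0.42), and Grpr, a receptor for gastrin-releasing peptide, from 3.59 and 6.66 to 0.124 and 0.205 CPM (log2 FC -4.80 ± 0.53). In each of these the lines were far apart, and the control harvests were alike for Apod and differed from each other for the rest. Igfbp6, which encodes a binding protein for insulin-like growth factors, was uneven in the controls, at 19.9 and 146 CPM against 2.36 and 1.98 CPM with T-bet (log2 FC -5.28 ± 1.09), and its FDR of 0.0288 became 0.168 without T-bet + Plum replicate 1, 0.237 without T-bet + Plum replicate 2 and 0.0548 without GFP + Plum replicate 2. Cd180, a Toll-like receptor relative, was at 10.6 and 4.00 against 0.124 and 0.274 CPM (log2 FC -5.01 ± 0.75), with an FDR of 0.00779 that became 0.0635 without T-bet + Plum replicate 1 and 0.0883 without T-bet + Plum replicate 2. The last of the 12, Hpgds, belongs to the TH2 examples of the study.

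**Figure D2:**
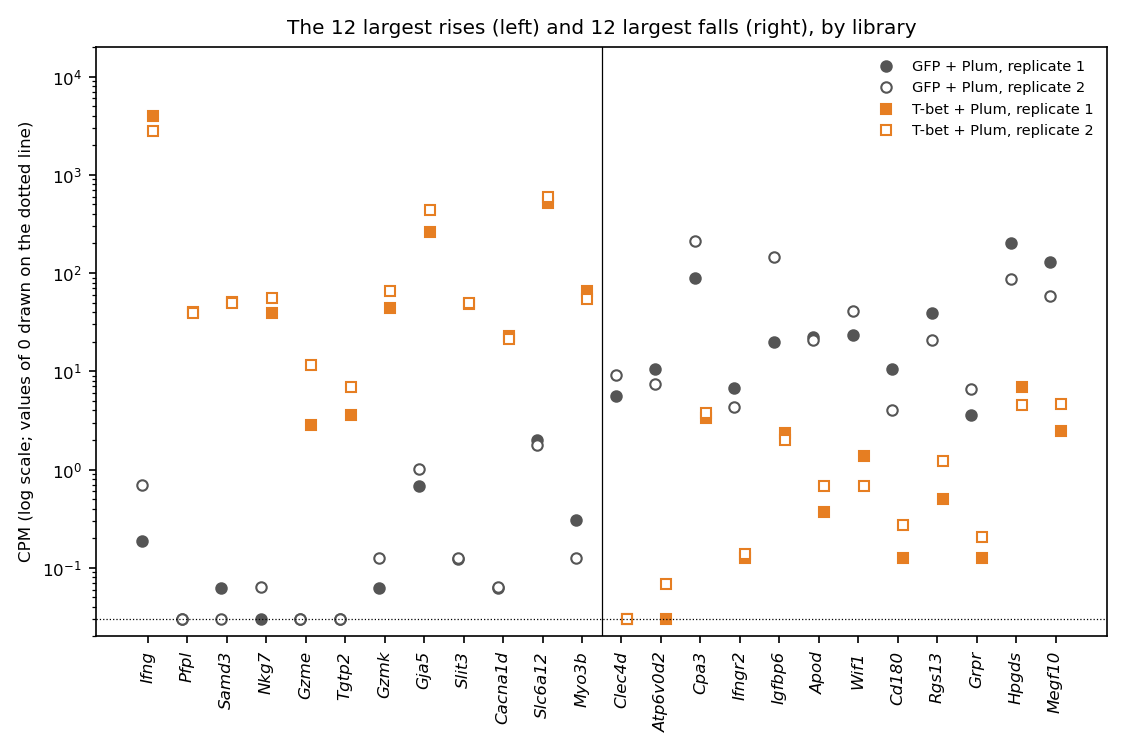
CPM on a log axis of the 12 largest rises (left of the line) and 12 largest falls (right), with GFP + Plum as grey circles and T-bet + Plum as orange squares, filled for replicate 1 and open for replicate 2. Most rises start at or near 0, drawn on the dotted line, whereas the falls start above 3 CPM, and no gene has overlapping lines. Genes were picked by size of change and at least 5 CPM in the higher line, so these contrasts follow from the selection.

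In deposited TPM, which are scaled for transcript length and so allow levels of different genes to be compared, the largest gains among called genes were all secreted products. Mean TPM went from 148 to 7647 for Ccl3, from 987 to 6143 for Ccl1, from 77.2 to 5299.8 for Ccl4, from 0.84 to 4939 for Ifng and from 5.96 to 1366 for Xcl1. By rank among all genes, Ccl3, Ccl1, Ccl4 and Ifng stood at positions 9, 12, 15 and 18 with T-bet, and at 880, 177, 1656 and 13529 without it. Thus 4 genes for secreted signals stood near the top of the T-bet line's RNA. Losses in TPM were smaller, the largest being 223 to 69.3 for Top2a and 202 to 53.5 for Serpinb1a, which encodes an inhibitor of neutrophil proteases.

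Of 23 listed chemokine ligand genes, 10 passed the filter, 5 rose and none fell, and their median log2 FC was 2.98. This and the other medians cover only members that passed the filter, some of which passed through their level in a single line. The risers were Xcl1, Ccl4, Ccl3, Ccl9 and Ccl1. Xcl1, which encodes lymphotactin and attracts cross-presenting dendritic cells, was at 2.91 and 1.97 CPM in the controls and 645 and 524 CPM with T-bet (log2 FC 7.90 ± 0.25, FDR 5.26e-06). Ccl4, the gene for MIP-1β, went from 25.5 and 59.7 to 3031 and 2883 CPM (log2 FC 6.12 ± 0.42, FDR 0.000204), and Ccl9 from 9.96 and 3.49 to 304 and 128 CPM (log2 FC 5.0 ± 0.65, FDR 0.00425). Ccl1, the ligand of CCR8, was already at 473 and 334 CPM and reached 2666 and 2564 CPM (log2 FC 2.70 ± 0.22, FDR 0.000475). The T-bet libraries were the higher in every case. Ccl5, at 36.0 and 30.2 against 154 and 45.6 CPM, was not called (log2 FC 1.58 ± 0.53, FDR 0.145). It was uneven between the T-bet libraries, was called without T-bet + Plum replicate 2 (FDR 0.0445) and with no filter on low counts, and its log2 FC lay between 0.46 and 2.22 over the alternatives. Ccl3 and Ccl4 are neighbours of high sequence identity, and their counts may share reads.

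Cytokine genes moved both ways. Of 32 listed, 21 passed the filter, 3 rose and 4 fell, with a median of 0.58. Il17f, which encodes a cytokine of TH17 cells, was at 108 and 82.7 CPM in GFP + Plum and 6.35 and 10.1 CPM in T-bet + Plum (log2 FC -3.51 ± 0.27, FDR 0.000358). Of the other called genes, Il33, an alarmin, was at 25.9 and 5.90 against 1.74 and 0.752 CPM (log2 FC -3.77 ± 0.85, FDR 0.0389). Il22, a cytokine that acts on epithelia, was at only 0.743 and 0.888 CPM in the controls (12 and 14 counts) with no count in T-bet + Plum, at least 6.15-fold lower. The FDR of Il22, 0.0477, lay just under the threshold. The controls were above the T-bet libraries for all 3 genes. Leaving out single libraries ended calls in this list: 1 member was called down without either T-bet + Plum library or without GFP + Plum replicate 1, and 1 was called up without T-bet + Plum replicate 1 or GFP + Plum replicate 2. Csf1, a growth factor of macrophages, was the other fall, and Csf2, Il16 and Ifng were the rises.

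Genes of the cytotoxic granule and of death ligands rose without exception among those called. Of 26 listed, 19 passed the filter and 10 rose, with a median of 2.64, and 8 to 10 were called when each library was left out. Besides Pfpl, Nkg7, Gzmk and Gzme, these were Ctsw, Fasl, Tnfsf10, Serpinb6b, Gzma and Serpinb9, with log2 FCs between 1.92 for Serpinb9, an inhibitor of granzyme B, and 7.88 for Ctsw, a protease of NK cells. Fasl and Tnfsf10, which encode the death ligands FASL and TRAIL, had log2 FCs of 3.31 and 2.98. Among members that were not called, Srgn, the proteoglycan core of the granule, was at 109 and 64.3 CPM without and 207 and 237 CPM with T-bet (log2 FC 1.36 ± 0.25, FDR 0.0198), which passed the FDR and missed the threshold of size.

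Receptors and adaptors of NK cells, a list that also holds Samd3, had 10 of the 18 tested (30 listed) called up and 1 down, with a median of 3.45. Klrc1, which encodes the NKG2A chain, was at 0.433 and 0.317 CPM in the controls and 52.9 and 94.3 CPM with T-bet (log2 FC 7.58 ± 0.38, FDR 6.04e-05). Klrd1, its partner chain CD94, went from 0.186 and 0.317 to 11.9 and 31.2 CPM (log2 FC 6.39 ± 0.66, FDR 0.00151), and Cd160, a receptor that binds HVEM, from 8.54 and 8.44 to 112 and 148 CPM (log2 FC 3.94 ± 0.27, FDR 0.000213). Both chains of the CD94 and NKG2A receptor were near 0 in the controls, and T-bet + Plum replicate 2 was the higher of the T-bet libraries for both. Klrc2 had no control count and was at least 53.1-fold higher, with 2.36 and 6.43 CPM, and its FDR of 0.00968 became 0.0593 without T-bet + Plum replicate 2. Its sequence is close to that of Klrc1, so reads could have been assigned to either. Fcer1g, the signalling adaptor of Fc receptors, was the member that fell, from 39.2 and 25.4 to 2.12 and 3.01 CPM (log2 FC -3.62 ± 0.36, FDR 0.00136). Klre1, Klra7, Crtam, Cd226, Klrg1 and Samd3, described above, were the other members called up. Klrg1 was not called with DESeq2 (FDR 0.056), with transcript length offsets or with the 4 libraries of the comparison alone. Between 6 and 9 members were called up when each library was left out, with 6 without T-bet + Plum replicate 2.

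Among cytokine receptor genes 32 of 43 listed passed the filter, 10 rose and 4 fell, with a median of 0.41. The rises included receptors for cytokines of the IL-1 family, whose genes are neighbours. Il18r1, which belongs to the TH1 examples of the study, was at 2.97 and 2.16 CPM without and 69.9 and 72.6 CPM with T-bet (log2 FC 4.79 ± 0.46), and Il1rl1, the receptor for IL-33, at 0.743 and 0.761 against 9.96 and 16.3 CPM (log2 FC 4.12 ± 0.43, FDR 0.00157). Their partner chain genes Il18rap and Il1rap also rose, with log2 FCs of 2.72 and 1.66, but Il18rap lost its call with any 1 of the 4 libraries left out (FDR 0.0535 to 0.116). Il21r, Il2rb, Il4ra, Il12rb1, Tnfrsf1a and Tnfrsf1b completed the 10, of which Il12rb1, just above the threshold of size, was lost under 8 of 12 alternatives, DESeq2 and library size scaling among them. The falls were Ifngr2, Il7r, Il6ra and Flt3. Il7r, the receptor chain for IL-7, went from 12.3 and 11 to 1.37 and 0.752 CPM (log2 FC -3.52 ± 0.61, FDR 0.0145), and its FDR became 0.0662 without T-bet + Plum replicate 1 and 0.156 without T-bet + Plum replicate 2. Fewer rises in this class were called with any 1 library left out, and fewer falls unless that library was GFP + Plum replicate 1. Il6ra lost its call in each of these fits. Leaving out a library also lowers the power of the test. With transcript length offsets 2 were called down.

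Chemoattractant receptors rose in 5 of the 13 tested (25 listed), with a median of 1.68 and 4 to 6 called up when each library was left out. Ccr2, a receptor for CCL2, was at 0.495 and 0.698 CPM in GFP + Plum and 5.6 and 17.3 CPM in T-bet + Plum (log2 FC 4.26 ± 0.63, FDR 0.0074), and Ccr8 at 0.804 and 1.52 against 6.60 and 10.4 CPM (log2 FC 2.88 ± 0.37, FDR 0.00389). Thus the genes of the ligand CCL1 and of its receptor CCR8 were both higher with T-bet. Gpr183, the oxysterol receptor that guides cells in lymphoid tissue, had 1 control count and reached 3.24 and 1.57 CPM, 69.0-fold higher (95% exact interval 11.8 to 2782). Cxcr5, the follicular homing receptor, was at 99.2 and 135 against 63.5 and 85.5 CPM and was not called (log2 FC -0.65 ± 0.24, FDR 0.179).

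Other surface molecules of activated T cells held called members in some classes and none in others. In the TNF superfamily 5 of the 18 tested were called up, and 3 or 4 when each library was left out (3 without either T-bet + Plum library). Tnfrsf18, which encodes GITR, was at 4.27 and 1.40 CPM without and 74.3 and 47.5 CPM with T-bet (log2 FC 4.41 ± 0.47, FDR 0.00161), and its chromosomal neighbour Tnfrsf4, the gene for OX40, at 5.51 and 3.55 against 62.6 and 41.0 CPM (log2 FC 3.50 ± 0.43, FDR 0.00313). In the SLAM and CD2 family 3 of the 8 tested rose. Cd84, a homophilic adhesion receptor, was at 21.5 and 25.6 against 188 and 223 CPM (log2 FC 3.13 ± 0.15, FDR 6.04e-05), Cd2, an adhesion molecule of T cells, at 1.55 and 1.65 against 16.7 and 19.2 CPM (log2 FC 3.48 ± 0.27), and Slamf7 at 2.23 and 3.30 against 21.5 and 24.4 CPM (log2 FC 3.05 ± 0.23). Cd2 and Slamf7 were nearly silent in the controls, whereas Cd84 rose from a moderate level. Of 11 Ly6 family and GPI-linked genes tested 5 rose, among them Ly6a, the stem cell antigen Sca-1, from 1.86 and 1.78 to 31.2 and 42.9 CPM (log2 FC 4.35 ± 0.23, FDR 7.77e-05), and Cd52, a small glycopeptide of lymphocytes, from 4.02 and 3.17 to 22 and 41.3 CPM (log2 FC 3.14 ± 0.32, FDR 0.0014). Without either GFP + Plum library or without T-bet + Plum replicate 2, 3 of these were called. Ly6 genes are close copies of each other and may share reads.

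Integrins and adhesion genes gave 4 rises and 1 fall of 24 tested. Itga2, the collagen-binding α2 chain found on NK cells, was at 0.248 and 0.190 CPM in GFP + Plum and 6.35 and 8.55 CPM in T-bet + Plum (log2 FC 5.04 ± 0.39, FDR 0.000388). The fall was in Itgb7, the β7 chain of gut homing integrins, which was at 27.6 and 49.7 against 3.73 and 6.5 CPM (log2 FC -2.87 ± 0.41), with an FDR of 0.00647 that became 0.057 without T-bet + Plum replicate 1. Rises numbered 2 without GFP + Plum replicate 2 and 2 without T-bet + Plum replicate 2. The list of axon guidance genes did not hold Slit3, whose rise is described above. Of its 14 genes tested, 3 rose, all semaphorins, and fewer were called up without T-bet + Plum replicate 2. One of them, Sema6d, went from 0.124 and 0.127 to 1.99 and 2.32 CPM (log2 FC 4.02 ± 0.50, FDR 0.00329). Inhibitory checkpoint receptors and B7 ligands held no gene called by edgeR or DESeq2 among 19 tested, although 7 had an unadjusted p below 0.05 and 6 an FDR of at most 0.05, and 1 was called up by edgeR without either GFP + Plum library. Pdcd1, the gene for PD-1, was at 315 and 381 against 269 and 307 CPM (log2 FC -0.27 ± 0.15, FDR 0.37).

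**Figure D3:**
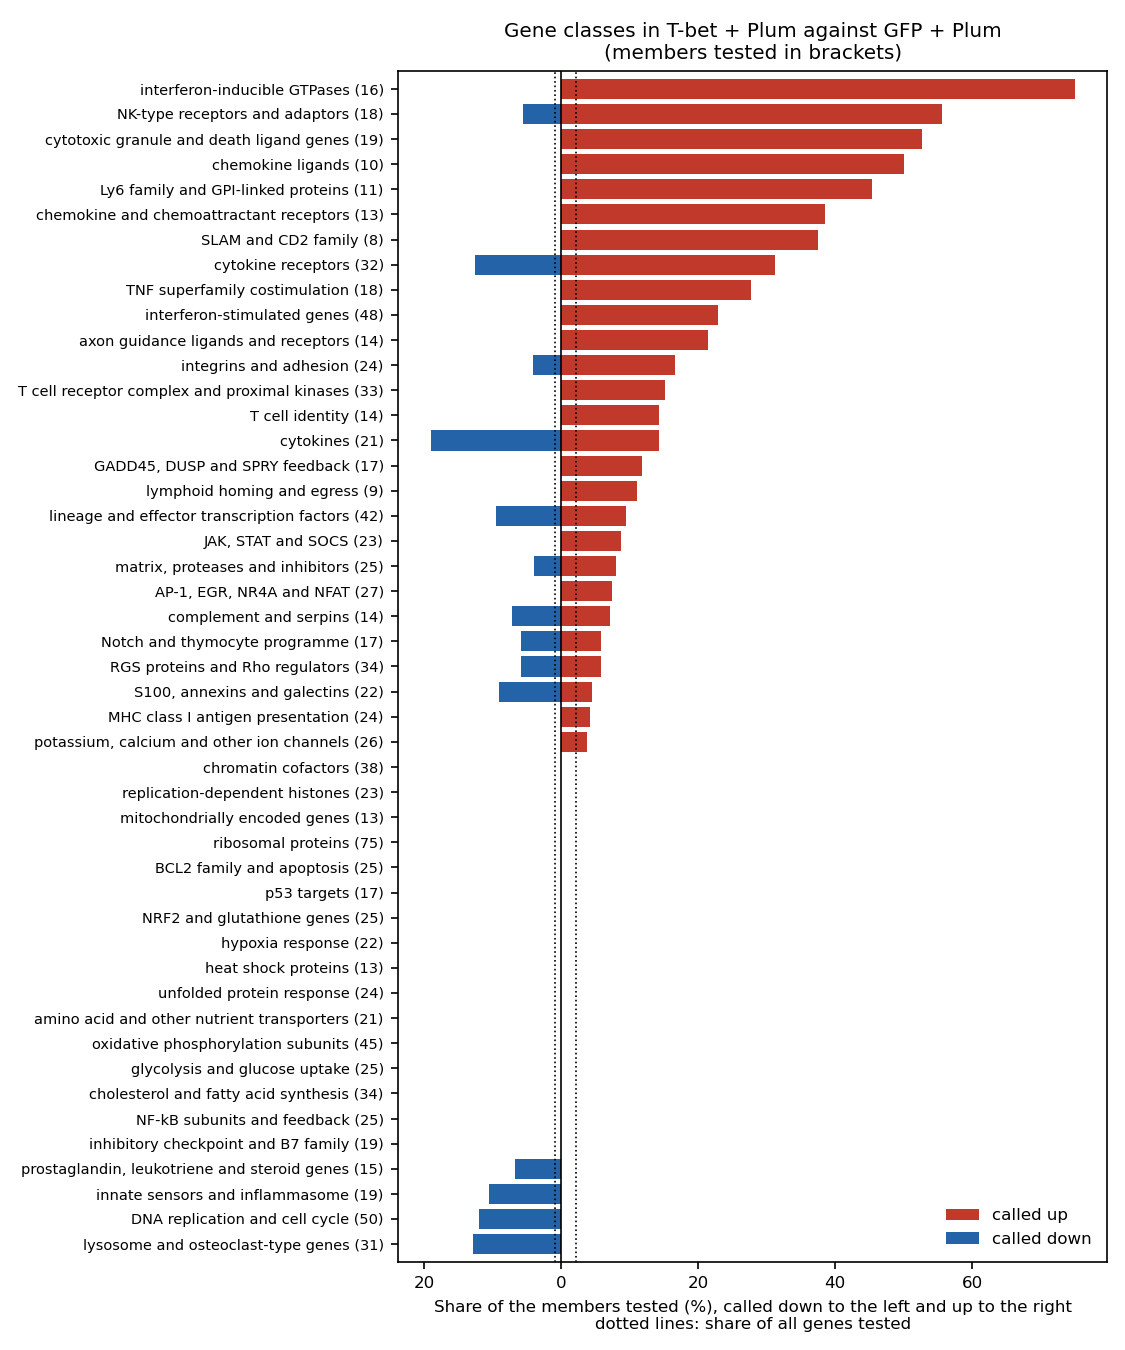
Share of the tested members of each gene class called up (red, to the right) and called down (blue, to the left), in percent, for the 47 classes with at least 8 members tested, and dotted lines at the 2.12% and 0.892% of all genes. Interferon-inducible GTPases (12 of 16), NK-type receptors and adaptors (10 of 18) and cytotoxic genes (10 of 19) stand at the top, and lysosome and cell cycle genes have falls only.

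Signalling genes were grouped by pathway. Among 33 genes of the T cell receptor complex and its proximal kinases 5 rose and none fell, with a median of 0.52, and 2 were called without T-bet + Plum replicate 2. Themis, a thymocyte signalling adaptor, was at 15.8 and 21.7 CPM in the controls and 73.0 and 67.9 CPM with T-bet (log2 FC 1.91 ± 0.22, FDR 0.0022), and Dgkz, a diacylglycerol kinase that limits this pathway, at 115 and 111 against 338 and 464 CPM (log2 FC 1.83 ± 0.16, FDR 0.000714). Both rises were moderate, and the T-bet libraries were closer to each other for Themis than for Dgkz. Of 23 JAK, STAT and SOCS genes, Stat4 and Stat5a were called up. Stat4, which transmits signals of IL-12, had 1 control count and was at 2.74 and 5.06 CPM, 135-fold higher (95% exact interval 23.7 to 5397). Stat5a, which transmits signals of IL-2, was at 65.4 and 70.0 against 243 and 216 CPM (log2 FC 1.76 ± 0.13, FDR 0.000245). Jak2 was at 901 and 845 against 2275 and 1730.5 CPM, with an FDR of 0.00554 and a log2 FC of 1.20 ± 0.17, below the threshold of size. The phosphatase gene Dusp2, which acts on MAP kinases, rose from 375 and 289 to 1212 and 1225 CPM (log2 FC 1.88 ± 0.20, FDR 0.0017).

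Transcription factor genes split evenly: 42 of 59 listed passed the filter, 4 rose and 4 fell, with a median of 0.02. The falls included Maf, a TH2 example of the study, and the HMG-box factor genes Tox2 and Sox5. Tox2 and Sox5 had log2 FCs of -4.65 and -3.02, and Tox2 was at 0 and 0.137 CPM with T-bet. The rises beside Tbx21 were Zbtb32, Gfi1 and Runx1, each with a log2 FC between 1.55 and 1.95. With 1 library left out, 1 rise was called without GFP + Plum replicate 2 or T-bet + Plum replicate 2 and 2 without T-bet + Plum replicate 1, and 1 or 2 falls were called without a T-bet + Plum library. With transcript length offsets 2 rises were called. In the immediate-early classes, 2 of 27 AP-1, EGR, NR4A and NFAT genes rose, of which 1 was called without GFP + Plum replicate 2 or without either T-bet + Plum library. Nr4a3, an orphan receptor induced by calcium signals, was at 84.0 and 99.3 against 375 and 411 CPM (log2 FC 2.10 ± 0.17, FDR 0.00043). NF-κB subunits and their inhibitors held no gene called by edgeR among 25 tested, against 1 by DESeq2, and 10 had an unadjusted p below 0.05. Rel had an FDR of 0.00551 at 271 and 337 against 853 and 651 CPM (log2 FC 1.31 ± 0.18), and Nfkb1 of 0.0154 at 545 and 627 against 949 and 1002 CPM (log2 FC 0.74 ± 0.13).

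Interferon-inducible GTPases, which defend cells against vacuolar pathogens, had the highest share of rises of the classes drawn. Of 19 listed, 16 passed the filter, 12 rose and none fell, with a median of 4.26. Iigp1, of the immunity-related GTPase family, had 2 control counts and was at 14.6 and 22.9 CPM with T-bet, 318-fold higher (95% exact interval 87.6 to 2637). Tgtp1 and Tgtp2 had no control count, were at 4.11 and 4.10 and 3.61 and 6.97 CPM, and were at least 43.7-fold and 61.5-fold higher, although these copies are so alike that their reads cannot be divided with confidence. Ifi47 had 1 control count and was at 3.98 and 6.02 CPM, 169-fold higher (95% exact interval 29.8 to 6733). The control line was close to empty of these RNAs in both harvests. The guanylate-binding protein genes Gbp2, Gbp4, Gbp5, Gbp6, Gbp7 and Gbp9, with Igtp and Irgm2, completed the 12, with log2 FCs between 2.19 for Irgm2 and 5.93 for Gbp7. Gbp9 was not called with DESeq2 (FDR 0.128), with transcript length offsets or with the 4 libraries of the comparison alone. Irgm1 was at 19.4 and 28.3 against 40.6 and 62.6 CPM and was not called (log2 FC 1.12 ± 0.29, FDR 0.069). When each library was left out 7 to 10 were called, with 7 without GFP + Plum replicate 2 and 8 without either T-bet + Plum library.

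The wider set of interferon-stimulated genes had the same sign but smaller changes. Of 58 listed, 48 passed the filter, 11 rose and none fell, 45 had a positive log2 FC and the median was 1.17. Ifi204, a DNA sensor of the HIN-200 family, was at 8.23 and 9.77 CPM in GFP + Plum and 178 and 135 CPM in T-bet + Plum (log2 FC 4.12 ± 0.36, FDR 0.00067), and Phf11b at 0.186 and 0.444 against 5.10 and 7.80 CPM (log2 FC 4.33 ± 0.44, FDR 0.00141). Ifi203, Ifi205, Trim30a, Zbp1, Isg15, Isg20, Parp14 and Irf1 rose by smaller amounts, from 1.69 to 2.52 on the log2 scale. Of these, Ifi205, Zbp1 and Isg15 lost their call with any 1 library left out, and Trim30a and Parp14 with transcript length offsets. Ifi47, which stands in both lists, completed the 11. Without T-bet + Plum replicate 2, 7 were called. MHC class I genes had 23 positive log2 FCs of 24 with a median of 0.77, and 1 passed the call, or 2 and 3 without GFP + Plum replicate 1 and 2. This was H2-T22, a non-classical class I gene, at 26.0 and 23.5 against 72.1 and 75.0 CPM (log2 FC 1.57 ± 0.12, FDR 0.000376). The classical gene H2-K1 was at 968 and 1161 against 1407 and 1530.3 CPM (log2 FC 0.46 ± 0.14, FDR 0.11), and B2m, the light chain, at 1296 and 1196 against 1403 and 1450.5 CPM (log2 FC 0.20 ± 0.12, FDR 0.429). Ifng, these genes and Ifngr2 thus moved in the same line, the last in the opposite direction, and any part of one in the others was not tested.

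Falls included genes of lysosomes and of osteoclast-type cells, with 4 of the 31 tested (39 listed) down and none up, and a median of -0.07, close to that of all genes. Gpnmb, a lysosomal and membrane glycoprotein of macrophages and osteoclasts, was at 361 and 329 CPM in the controls and 31.7 and 28.7 CPM with T-bet (log2 FC -3.52 ± 0.13, FDR 1.16e-05), the most abundant of the 4. Ctsl, a lysosomal protease, was at 40.4 and 68.1 against 18.3 and 14.1 CPM (log2 FC -1.75 ± 0.26, FDR 0.00806), which became 0.0994 without T-bet + Plum replicate 2 and 0.0165 without GFP + Plum replicate 2 (log2 FC -1.33). The other 2 were Atp6v0d2 and Clec4d. Emp1, an epithelial membrane protein gene, went from 55.3 and 38.7 to 4.23 and 3.97 CPM (log2 FC -3.52 ± 0.24, FDR 0.000196). Matrix genes moved both ways, with rises of Spp1, which encodes osteopontin, from 2.78 and 0.381 to 215 and 196 CPM (log2 FC 7.0 ± 0.79, FDR 0.00208) and of Lamb1, a laminin chain, from 3.34 and 2.92 to 23.3 and 49.4 CPM (log2 FC 3.54 ± 0.35, FDR 0.00136).

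Most cell cycle genes had lower values with T-bet, by amounts that missed the threshold. Of 50 tested (51 listed), 48 had a negative log2 FC and the median was -0.79, with 6 called down and none up. Top2a, the topoisomerase that separates chromosomes, was at 579 and 789 CPM in GFP + Plum and 247 and 175 CPM in T-bet + Plum (log2 FC -1.70 ± 0.38, FDR 0.0399). Cdkn2d, an inhibitor of CDK4 and CDK6, was at 8.35 and 8.06 against 1.99 and 1.5 CPM (log2 FC -2.25 ± 0.26, FDR 0.00219), and it acts against the other members of the class. Cenpf, Aurka, Tpx2 and Mki67, which act in mitosis or mark cycling cells, completed the 6, with log2 FCs from -1.93 to -1.57. The number called down fell when either T-bet + Plum library or GFP + Plum replicate 2 was left out. It rose without GFP + Plum replicate 1. Each of these fits leaves 1 library in a line and lowers the power of the test. A lost call therefore need not mean that 1 library carried it. The class median stayed negative in these fits, between -1.09 and -0.47. Ccnd2, the gene for cyclin D2, was at 408 and 486 against 762 and 708 CPM and was not called (log2 FC 0.72 ± 0.14, FDR 0.0263). Replication-dependent histone genes had a median of -0.56 with 22 of 23 negative, none called by edgeR or DESeq2 and 3 at an unadjusted p below 0.05. Most of these RNAs lack poly(A) tails, and the study's methods describe selection of polyadenylated RNA, to which the labels add depletion of ribosomal RNA, so how far these RNAs were captured is uncertain.

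**Figure D4:**
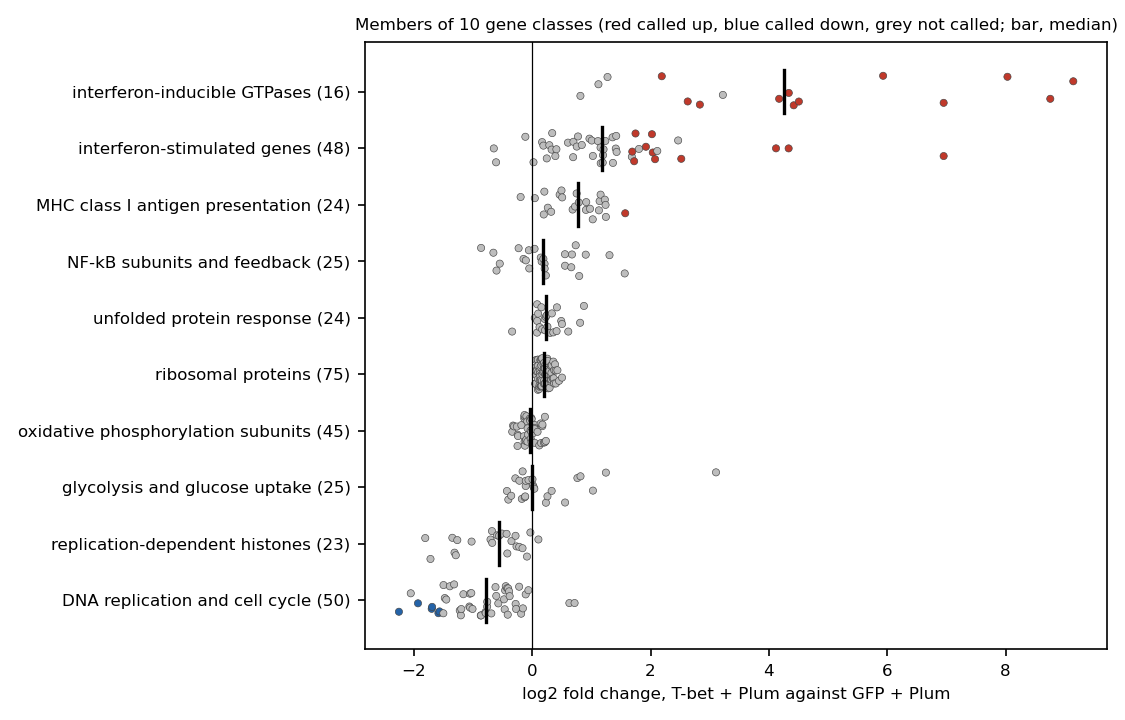
The log2 FC of each tested member of 10 gene classes, with the number tested in brackets, red for called up, blue for called down and grey for not called, and a bar at the median. The medians run from 4.26 for interferon-inducible GTPases through 1.17 for interferon-stimulated genes and about 0 for oxidative phosphorylation and glycolysis to -0.79 for cell cycle genes.

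Basal metabolism and protein synthesis genes showed no called member in the main fit. None of 25 glycolysis genes, 45 oxidative phosphorylation subunits, 13 mitochondrially encoded genes, 34 cholesterol and fatty acid synthesis genes, 21 nutrient transporters, 13 heat shock genes or 22 hypoxia genes was called by edgeR, and at an unadjusted p below 0.05 there were 3, 0, 0, 14, 4, 1 and 3 of them. DESeq2 called none of these either. The list of nutrient transporters did not hold Slc6a12, whose rise is described above. The median log2 FC was 0.00 for glycolysis and -0.04 for oxidative phosphorylation. All 75 ribosomal protein genes had a log2 FC above 0, with a median of 0.20 that lay between 0.16 and 0.21 under every alternative including scaling by library size, and none was called by edgeR or DESeq2, with 14 at an unadjusted p below 0.05. Of 34 sterol and lipid synthesis genes 28 were positive, with a median of 0.28, and of 24 unfolded protein response genes 23 were positive, with a median of 0.24.

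Markers of other cell types were detected in part. No count in any of the 4 libraries was found for 3 of 12 B cell markers and 4 of 16 macrophage and dendritic markers. The same held for 9 of 13 erythroid and platelet and 9 of 14 epithelial and neural markers. The summed level of 16 granulocyte and mast cell markers was 90.2 and 211.8 CPM in GFP + Plum and 3.86 and 4.44 CPM in T-bet + Plum, nearly all of it Cpa3, and 9 of the 16, among them Fcer1a, Ms4a2 and Tpsb2, had no count in any of the 4 libraries. Macrophage and dendritic markers summed to 10.8 and 13.0 CPM without T-bet and 7.34 and 7.38 CPM with it, with Csf1r, Lyz1 and C1qa at 0, and of 5 tested 1 was called down, Flt3, which stem and progenitor cells also express. The summed level of these markers in the controls was above that of Clec4d. B cell markers summed to 185 and 236 CPM against 158 and 169 CPM, nearly all from Ighm, with Cd79b and Igkc at 0. Erythroid and platelet markers stayed between 0.274 and 1.05 CPM in sum, and epithelial and neural markers between 0.747 and 1.5 CPM. Those of fibroblasts and endothelium, 191 and 445 against 192 and 266 CPM, were led by Thy1, which T cells also express. The part of other cell types in the falls of Cpa3, Clec4d and Gpnmb was not tested.

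Called genes also lay side by side on chromosomes. Taking protein-coding genes called in the same direction whose bodies were less than 250 kb apart, 16 runs of at least 3 genes were found among the rises, holding 57 genes, and 0 among the falls. Coding genes called numbered 273 up and 116 down, so the directions are not on an equal footing. The number of runs expected from gene spacing alone was not determined. Some runs were sparse, with 5 of 12 tested genes called in 1 on chromosome 1 and 3 of 9 in 1 on chromosome 7. Coordinates are those of Gencode M21 on GRCm38. All 4 tested coding genes of an interval on chromosome 6 (129577905 to 129678973) rose: Klre1, Klrd1, Klrc2 and Klrc1. All 5 did so on chromosome 1 (173747293 to 174031810), namely Ifi204, Mndal, Mnda, Ifi203 and Ifi205. Of these, Ifi205 was not called with any 1 library left out. Mndal was not called without either T-bet + Plum library or without GFP + Plum replicate 1. All 3 rose at the IL-1 receptor cluster of the same chromosome (40429570 to 40551705), Il1rl1, Il18r1 and Il18rap, the last not called with any 1 library left out. On chromosome 11 (83511736 to 83664683) 4 of 5 rose, Heatr9, Ccl9, Ccl3 and Ccl4, although Heatr9 was not called with DESeq2 (FDR 0.116), with transcript length offsets or with any 1 library left out. Other runs held guanylate-binding proteins on chromosomes 3 and 5, tripartite motif genes on chromosome 7, and Cd160, Gja5 and Acp6 on chromosome 3, where 3 of 6 tested genes rose. Several runs hold families of duplicated genes whose reads may be shared, whereas others, such as that of Cd160, Gja5 and Acp6, do not. The part of shared reads was not tested.

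Of the 446 called genes, 57 were annotated as something other than protein-coding, 41 up and 16 down, of 3718 such genes tested. The first of them by fitted log2 FC was RP23-353P23.2 (chromosome 10, 118441419 to 118444140), with no control count and 46.9 and 33.8 CPM with T-bet, at least 409.5-fold higher. It lies inside Ifng, and its reads cannot be told apart from unspliced Ifng RNA. In the same way RP24-299A7.2 overlaps Spp1. In all, 12 of the 57 (21.1%) overlapped a called protein-coding gene, against 1.08% of all non-coding genes tested, and in each case both moved in the same direction. RP23-12I4.2, an antisense gene, had no control count and was at 5.6 and 6.77 CPM, at least 67.6-fold higher. No overlap with a called coding gene was found for it. Bc1, a brain cytoplasmic RNA, was at 5.88 and 20.1 CPM without and 0.996 and 1.78 CPM with T-bet (log2 FC -3.16 ± 0.60), and its FDR of 0.0215 became 0.142 without T-bet + Plum replicate 1 and 0.13 without T-bet + Plum replicate 2. The counting was not stated to use strand, so that antisense and sense reads could not be separated.

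The same genes were followed in the lines that carried HA-GATA3, whose 4 libraries share none with the main comparison. There 421 genes (2.85%) were called between T-bet + GATA3 and GFP + GATA3. Of the genes called without GATA3, 298 were called with it in the same direction, which is 66.8% of the first list and 70.8% of the second, 221 up and 77 down, and 0 in the opposite direction. Ifng had a log2 FC of 12.54 ± 0.41 there, Xcl1 of 8.90 ± 0.29, Klrc1 of 6.07 ± 0.34, Gpnmb of -2.64 ± 0.13 and Ifngr2 of -4.11 ± 0.56. Nr4a3 had 3.48 ± 0.18 with GATA3 and 2.10 ± 0.17 without it, and Cpa3 -2.63 ± 0.37 and -5.39 ± 0.43. A test of the difference between the 2 effects passed for 0 genes at an FDR of 0.05 (smallest FDR 0.212, with 381 genes at an unadjusted p below 0.05 in edgeR), so these unequal values are not shown to differ. Of the 6 cell cycle genes called without GATA3, 1 was called with it, Cdkn2d, at -1.94 ± 0.24. The values of the others included -1.28 ± 0.38 for Top2a and -1.37 ± 0.38 for Cenpf, neither of which passed the FDR there.

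**Figure D5:**
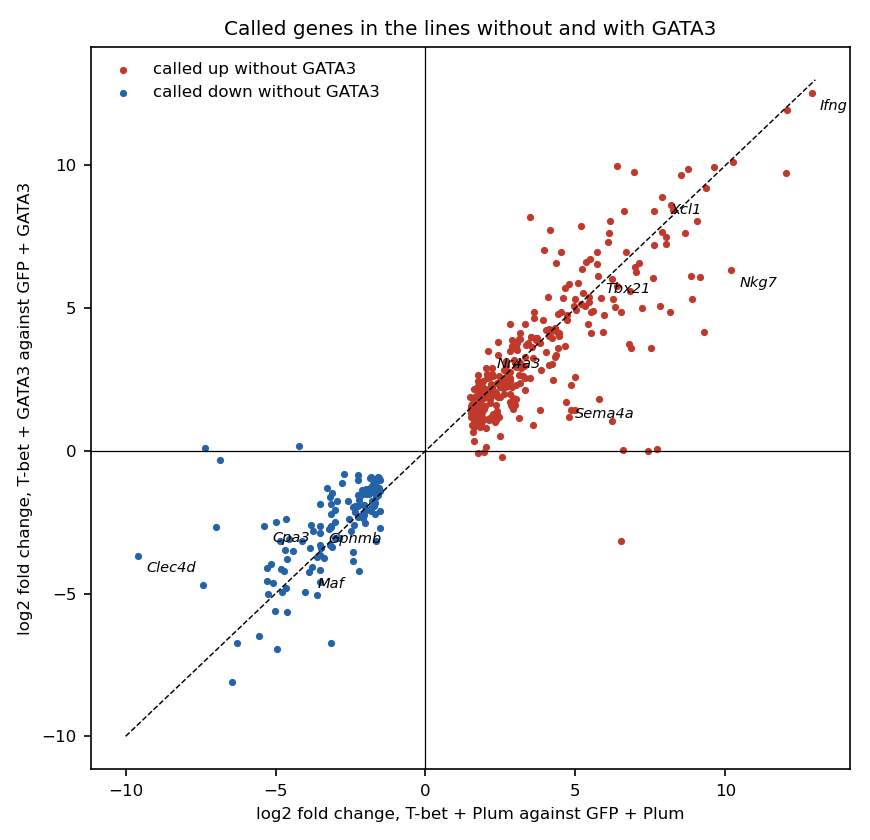
The log2 FC of T-bet for the 446 called genes without introduced HA-GATA3 (x axis) and with it (y axis), and a dashed line of equal values. Red marks genes called up and blue genes called down in the comparison without HA-GATA3. Nearly all points share a sign on both axes, as 298 of them share a call, and values of genes at 0 counts in a line depend on the prior count of the fit.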

How the data were processed

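RNA-seq libraries of stimulated EL4 cells were analysed from the values that the authors deposited for each library. The study's methods describe selection of polyadenylated RNA (the labels add depletion of ribosomal RNA), paired-end reads of 100 bp, quality control with FastQC, trimming with Trim Galore! and quantification against Gencode transcripts with kallisto, which divides a fragment between the transcripts it matches. The authors deposited estimated counts, which can hold fractions and carry no normalization, and TPM, which are scaled to the same total per library, for each of 136535 transcripts. Replicates were not pooled, and tool versions and strand are not given in the sources used here.

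Adding the estimated counts of each gene's transcripts and rounding the sum gave 54146 genes, of which 54079 were found in Gencode M21 on GRCm38. They were analysed in R 4.3.3 with edgeR 4.0.16 (filterByExpr, TMM normalization, quasi-likelihood test, Benjamini-Hochberg adjustment) after filtering to 14791 genes, in one fit of 8 libraries and 4 lines with 4 residual degrees of freedom. Standard errors were taken from the log2 FC and the F statistic of each gene. DESeq2 1.42.0 and further alternatives were run, and the scripts were tested on simulated data. Python 3.11.15, numpy 2.4.6, pandas 2.3.3 and matplotlib 3.10.9 were used. Deposited TPM were summed per gene and used only to compare levels between genes.

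The comparison, the gene classes and the tests were chosen with earlier results of these data known. Named genes were Tbx21, the 12 largest rises and falls among called protein-coding genes with at least 5 CPM in the higher line, up to 4 called and 2 other members of each class by size or level, the 5 largest changes in TPM and 3 non-coding genes in each direction. Further members that complete a count of called genes, and neighbours on a chromosome, were named after their values were seen. Same-line libraries were checked for duplicates: their counts differed well beyond sampling noise (chi-square over degrees of freedom of 32.5 in GFP + Plum and 11 in T-bet + Plum), so each counted as a replicate. Depth ran from 8038565 to 16003519 counts, so T-bet + Plum replicate 1 gives the least precise values of low genes. ChIP-seq and ATAC-seq data were not used here, and values of some genes are not reported here.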

Additional observations from a re-analysis of the deposited data

How the results depend on the processing

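Counts of called genes depended on the filter, the threshold and the libraries. Without a filter on low counts 814 genes were called (489 up, 325 down), at the FDR alone 917 (597 up, 320 down), and at a log2 FC above 1 there were 212 called down. With each of the 4 libraries left out in turn, 201 to 442 genes were called, 152 to 295 up and 49 to 147 down. The lone library of a line was then assumed to vary like those of the other lines. The count stayed within 1.5 times the reported 446 with DESeq2, scaling by library size, transcript length offsets, at least 10 counts in both libraries of a line, protein-coding genes only and the 4 libraries alone. With the replicate block 536 genes were called, 363 up and 173 down. The labels tie the libraries by number alone, and over genes the deviations of equal numbers in both lines had r = 0.06, so no pairing was assumed.

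Of 138 called genes named in the text, 84 were called under each of the 12 alternatives that tested them, none of the 138 changed direction, and most losses came from leaving out T-bet + Plum replicate 2 (52 calls) or replicate 1 (38 calls). Of 57 class medians, 36 kept their sign under all alternatives. Without the low-count filter 10 cell cycle genes were called down. Scaling moved the median log2 FC of all genes by at most 0.04. With 2 harvests of a single line on each side, changes of genes below about 1 CPM rest on few counts.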

Other observations

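Genes outside the listed classes were read after their values were seen, and the following were picked from them for what their products do. They are single genes, not a tested group. Erc2, which encodes the presynaptic scaffold protein ELKS2, was at 0.990 and 1.08 CPM in GFP + Plum and 28.6 and 26.9 CPM in T-bet + Plum (log2 FC 4.73 ± 0.29, FDR 0.000101). Ppfia2, the gene for liprin-α2, was at 1.49 and 0.825 against 37.5 and 34.2 CPM (log2 FC 4.94 ± 0.25, FDR 6.04e-05). Both calls held with each library left out. Bsn, which encodes bassoon, was at 6.56 and 8.56 against 24.1 and 23.9 CPM (log2 FC 1.67 ± 0.28, FDR 0.0136), which became 0.0663 without T-bet + Plum replicate 1, 0.0883 without T-bet + Plum replicate 2 and 0.0517 without GFP + Plum replicate 1. Dclk1, a kinase that binds microtubules, was at 0.681 and 0.254 against 23.9 and 43.9 CPM (log2 FC 6.15 ± 0.52, FDR 0.000513). With GATA3 the log2 FCs were 4.60 ± 0.32 for Erc2, 5.07 ± 0.26 for Ppfia2, 1.53 ± 0.29 for Bsn and 8.04 ± 0.69 for Dclk1. Each of these 4 overlaps an annotated non-coding gene that was also called up, so reads of either can have been assigned to the other.

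Hmmr and Gas2l3, which are not in the cell cycle list, were called down. Hmmr, a spindle assembly factor, was at 57.4 and 78.3 CPM without and 21 and 13.7 CPM with T-bet (log2 FC -1.98 ± 0.34, FDR 0.0145), which became 0.0508 without T-bet + Plum replicate 1, 0.142 without T-bet + Plum replicate 2 and 0.0538 without GFP + Plum replicate 2. Gas2l3, which links microtubules and actin in cell division, was at 55.7 and 37.9 against 11.7 and 9.85 CPM (log2 FC -2.13 ± 0.22, FDR 0.00142). With GATA3 the log2 FCs of Hmmr and Gas2l3 were -1.32 ± 0.33 and -1.37 ± 0.21.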
